A study of Homo sapiens with 23 samples.

Results

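The effect of STAT3 knockdown was measured in MCF10A-ER-Src cells in which the Src oncoprotein had been switched on for 4 h. MCF10A is a non-transformed human mammary epithelial line, and this derivative carries a Src fusion with the hormone-binding part of an estrogen receptor. The fusion restrains the kinase until tamoxifen (TAM) is added, though the paper presumes some basal ER-Src signalling in non-transformed cells. The comparison holds 6 of the 23 arrays of the series: 3 of cells given a pool of siRNAs against STAT3 (siSTAT3) and 3 of cells given a non-targeting pool (siNEG), both at 25 nM. After 48 h of growth the cells of all 6 samples received 1 µM 4-hydroxytamoxifen for 4 h, in medium that contained EGF, insulin, hydrocortisone and cholera toxin. The other groups used here were the same siRNA pairs given ethanol (EtOH) for 4 h, TAM for 24 h or EtOH for 24 h, with 3 arrays each except siSTAT3 in TAM at 24 h, which had 2. All groups are 1 cell line and 1 siRNA pool per target, so effects of the pool on other transcripts cannot be told apart from effects of STAT3 loss.

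STAT3 is a latent transcription factor that is phosphorylated on tyrosine by JAK kinases downstream of the IL6 family of cytokines, and also by Src. The phosphorylated dimer enters the nucleus and binds palindromic sites near genes for acute-phase proteins, cytokines and its own feedback inhibitor SOCS3. In mammary epithelium STAT3 is best known for its part in involution after lactation and for its persistent activation in many breast tumours.

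Transcripts were measured on Affymetrix U133 Plus 2.0 arrays. Values are MAS5 signals, a brightness in arbitrary units averaged over the probes of a probe set, so that levels are compared between arrays and never between genes. The median signal over all probe sets lay between 73.5 and 79.1 units on the 6 arrays. The ratio of 3' to 5' signal, a measure of RNA integrity, was 1.21 to 1.34 for ACTB in siSTAT3 and 1.32 to 1.34 in siNEG. All 7 measured markers of basal mammary epithelium, among them KRT5, KRT14 and ITGB4, reached 100 units, as did 7 of 10 luminal markers. Only CD14 of 8 immune markers did so, and PTPRC, the pan-leukocyte marker, was below that limit. Of 9 fibroblast markers COL1A1, DCN and FAP reached it, and of 8 endothelial markers PECAM1 and ENG.

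STAT3 itself was 13.1-fold lower in the siSTAT3 arrays. Its signal was 475, 406 and 393 units in siSTAT3 replicates 1 to 3 and 5626, 5974 and 5128 units in siNEG. The groups were far apart, with a difference of -3.72 ± 0.13 on the log2 scale (SE; limma, adjusted p = 8e-11). A further 3 probe sets for STAT3 also fell, by 3.37, 3.72 and 0.82 on the log2 scale, the smallest fall being that of a probe set at 122 units in siNEG. On the EtOH arrays of the same time the log2 difference was -3.61.

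Of 19775 genes tested, 927 rose and 911 fell in siSTAT3 at an adjusted p below 0.05, which is 4.69% and 4.61% of all genes (9.29% together). The 3 arrays of one group lay wholly above or below those of the other for 25.6% of all genes. The median change among the called genes was 0.56 in absolute log2 units, and 151 of the rises and 193 of the falls exceeded 1. Under the limits of the study's methods, an unadjusted p below 1e-04 and an absolute log2 change above 0.5, 341 genes rose and 353 fell. These tests drew the spread from all 23 arrays. With the 6 arrays alone, 112 genes rose and 141 fell at the same adjusted limit, while 2918 genes had an unadjusted p below 0.05. Leaving out each of the 6 arrays in turn kept 1068 of the 1838 calls in every round, 537 rises and 531 falls. Genes whose call depended on 1 array are marked as such where they are named. Values are those of the brightest probe set of a gene. For CFB, IL1R1, IL6ST, IL27RA, LIFR, PTPN2, IL1A, IL1RN, IFIT2, PARP9, JUND, TGFA, HBEGF, EREG, EGFR, ERBB3, BMP1, CDH1, PKP2, ZEB2, EPAS1, ABTB2, DLX2 and NEDD9, named as called below, the mean over all probe sets of the gene did not pass.

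**Figure D1:**
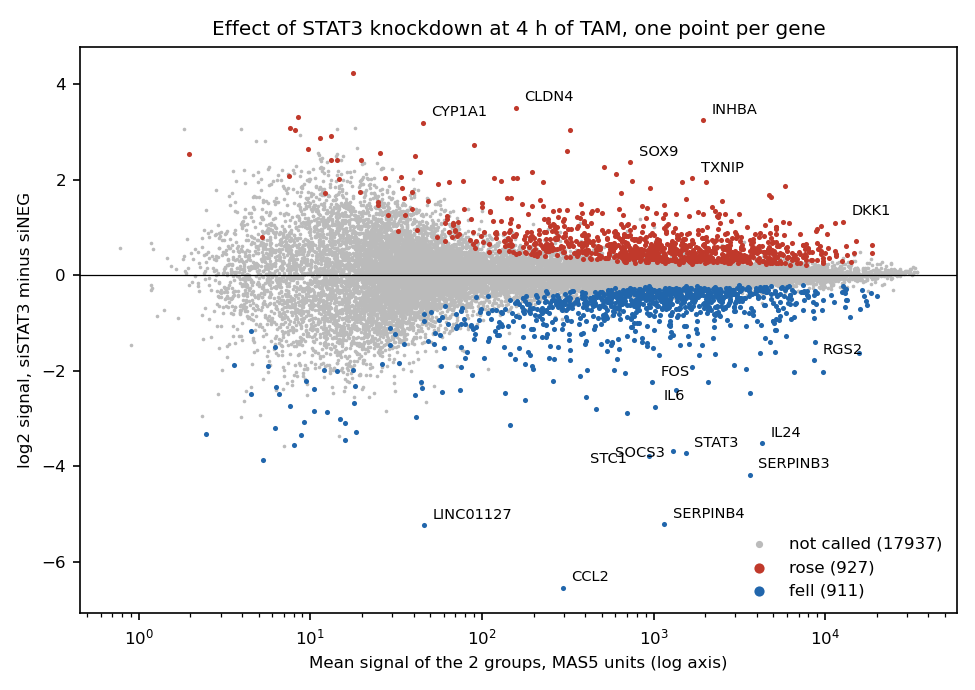
Each point is 1 gene, with the mean signal of siSTAT3 and siNEG on a log axis in MAS5 units and the log2 difference, siSTAT3 minus siNEG at 4 h of TAM, on the vertical axis. The 927 rises and 911 falls lie mostly above 100 units, and the farthest points below 0 include CCL2 at -6.54, SERPINB4 at -5.20 and STAT3 at -3.72.

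The 12 largest falls and 12 largest rises were taken among called genes that reached 100 units in a group and whose arrays did not overlap between groups. Where the other group lay under 100 units, the size of a difference rests on dim signals and is not exact. CCL2, the chemokine that draws monocytes, had 53.3, 15.5 and 29.3 units in siSTAT3 against 2354, 2898 and 2842 in siNEG. It was under 100 units in all siSTAT3 arrays and far above that in all siNEG arrays (-6.54 ± 1.22, adjusted p = 0.0023, or -5.87 with 16 units added to every signal). SERPINB3 and SERPINB4, the squamous cell carcinoma antigens, changed by -4.17 and -5.20 on the log2 scale. SERPINB4 had 315, 209 and 86.3 units in siSTAT3 and 6502, 7279 and 5957 in siNEG. The sequences of the 2 genes are nearly identical, and the probe set for SERPINB3 is marked by its suffix as one that can cross-hybridize, so the 2 signals are not separate measurements. IL24, an IL10 family cytokine, had 1296, 1297 and 1233 units against 14339, 15680 and 13612, and fell by 3.51 (SE 0.56, adjusted p = 6e-04). STC1, the secreted glycoprotein stanniocalcin, had 372, 225 and 177 units against 3424, 3755 and 3043. Its log2 difference was -3.79 (SE 0.26, adjusted p = 6.3e-08). Further falls were those of the long non-coding RNA LINC01127 (-5.22, or -3.57 with 16 units added), the Notch ligand DLL1 (-3.13), the transcriptional repressor SNAI1 (-2.97), the chitinase-like protein CHI3L1 (-2.89) and the IL33 receptor IL1RL1 (-2.81).

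Among the largest rises, CLDN4, a tight junction claudin, had 540, 474 and 547 units in siSTAT3 against 43.0, 70.5 and 31.3 in siNEG, so that it was under 100 units in every siNEG array (3.51 ± 0.43, adjusted p = 3.7e-05, or 3.10 with 16 units added to every signal). INHBA, the subunit of activin A, had 5790, 6037 and 6050 units against 630, 591 and 676. This 9.44-fold rise had the smallest error of the large changes (3.24 ± 0.09, adjusted p = 3.9e-12). SOX9, a transcription factor of epithelial progenitors, had 1729, 1498 and 1736 units against 265, 361 and 346, a rise of 2.36 (SE 0.17). The cornified envelope genes SPRR2B and SPRR1B rose by 3.03 and 2.59 and the keratin KRT23 by 2.73. The SPRR2B probe set can cross-hybridize with other members of its family. CYP1A1, the aryl hydrocarbon receptor target, rose by 3.19, from 17.5 ± 14.8 units in siNEG to 118 ± 13.3 in siSTAT3 (SD, n = 3), and by 2.09 with 16 units added. ANKRD1 rose by 2.11 and IL36G by 2.04. DLX2 and NEDD9 rose by 2.27 and 2.04 on their brightest probe set, while the mean over all probe sets of each gene did not pass (adjusted p = 0.29 and 0.23 by limma). KANK4 rose by 2.16, but its call was lost when any 1 of the 6 arrays was left out, with adjusted p up to 0.11.

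**Figure D2:**
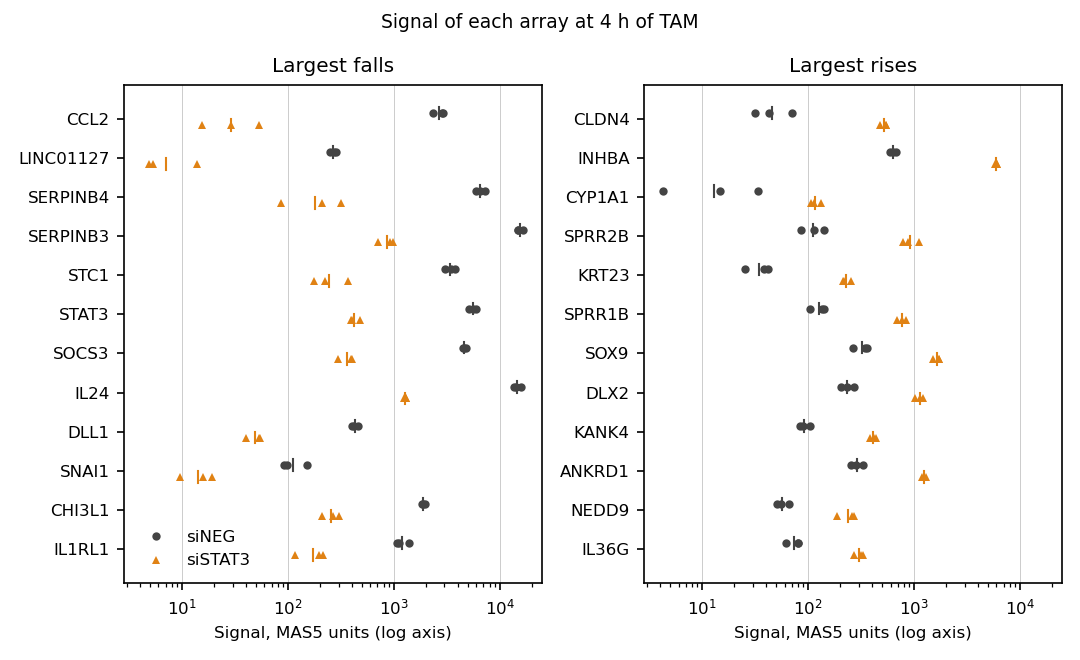
Signal of every array in MAS5 units on a log axis for the 12 genes with the largest falls and the 12 with the largest rises at 4 h of TAM. Circles are siNEG arrays, triangles siSTAT3 arrays, and short vertical lines the mean log2 signal, and genes were chosen among those whose groups did not overlap.

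Genes were then read in lists by role. Established STAT3 targets and acute-phase genes moved in 1 direction: of 32 measured, 18 fell and 0 rose by limma, against 4.61% and 4.69% of all genes, and 1 had a rise at an unadjusted p below 0.05. The median change over the 32 was -0.68, against 0.01 over all genes. SOCS3, which inhibits JAK kinases in a feedback loop, had 403, 395 and 299 units in siSTAT3 and 4565, 4524 and 4740 in siNEG. It fell 12.7-fold (-3.67 ± 0.34, adjusted p = 2.2e-06). BCL6, a transcriptional repressor, had 545, 654 and 568 units against 2764, 3246 and 3338 and fell by 2.40. Both genes were lower in every siSTAT3 array. Among plasma proteins of the acute phase, the protease inhibitors SERPINA1 and SERPINA3 fell by 2.47 and 1.67, complement factor CFB by 1.99 and the fibrinogen chain FGB by 1.74. HP and FGG, at 92.3 and 82.1 units in siNEG, also passed, but each lost its call without certain single arrays (adjusted p up to 0.087 and 0.16). The transcription factors CEBPD and CEBPB fell by 0.99 and 0.38, HIF1A by 0.53, the angiogenic factor VEGFA by 0.93 and the IL1 receptor IL1R1 by 1.43. Not all listed targets fell. MYC had 10890 ± 722 units in siSTAT3 and 10815 ± 1122 in siNEG (SD, n = 3), a difference of 0.01, and complement C3 (-0.01), MCL1 (-0.07), PIM1 (0.30), CCND1 (0.19) and JUNB (-0.85, adjusted p = 0.071) did not pass either. Between 16 and 18 genes of the list fell when single arrays were left out.

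The palindrome TTCNNNGAA that STAT dimers bind was searched in RefSeq promoter windows of build GRCh38.p14, from 250 bases before to 50 after each annotated start. Its fixed letters read the same on both strands. Of 21490 windows of tested genes, 6.80% held it, against 8.74% of 1098 windows of genes that fell and 5.92% of 1250 windows of genes that rose. Counted per gene, 8.97% of all genes, 12.2% of those that fell and 9.27% of those that rose had it in a window, so that the rises lay below all genes by window and above them by gene. Sites in the windows of called genes are shown 5' to 3' on the strand of the gene, with the palindrome in capitals. BCL6 is shown because its window held several copies. The 2 that begin before the start are printed, and the one beginning 5 bases before it runs across it. The other sites are from a serpin and an interferon-induced gene that fell.
BCL6, chr3:187745482-187745502, minus strand, starting 28 bases before the start: ctcaaaTTCCGAGAAttgagc
BCL6, chr3:187745459-187745479, minus strand, starting 5 bases before the start: tgttgaTTCTTAGAActgggg
SERPINB1, chr6:2842057-2842077, minus strand, starting 208 bases before the start: cagagaTTCGGGGAAaggctt
IFITM1, chr11:314022-314042, plus strand, starting 12 bases before the start: acacacTTCTGAGAAactgaa
Beside these sites stand falls of 2.40 for BCL6, 1.97 for SERPINB1, a neutrophil protease inhibitor, and 1.06 for IFITM1, a membrane protein that restricts viruses. The palindrome was also in windows of genes that rose, among them KLF7, EGR1, BMAL1, CXCL11, IFI27 and MAFF, and no site was found for SOCS3. Of 50 named genes that fell and had a window, 5 (10%) held it, against 8.97% of all genes. The printed sites are thus examples and do not set the named falls apart. Windows were at hand for 15384 of the 19775 genes tested, so a gene without a site may also have lacked a window. A match describes these letters only, and binding was not analysed here.

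The cytokines and receptors that act through STAT3 did not move together. IL6 had 303, 460 and 406 units in siSTAT3 and 1750, 3197 and 3070 in siNEG and fell by 2.75 (SE 0.27, adjusted p = 4e-06). The related ligand LIF went the other way, with 3462, 4157 and 4235 units against 791, 1169 and 1128 (1.96 ± 0.15, adjusted p = 2.8e-07). The shared receptor chain IL6ST fell by 0.41 and the oncostatin M receptor OSMR by 0.59. IL27RA fell by 0.52 and LIFR by 0.55, the latter not in every round with an array left out (adjusted p up to 0.13). In all, 5 of the 15 measured genes of this family fell (33.3%) and 1 rose (6.67%), against 4.61% and 4.69% of all genes. Of the kinases and factors of the pathway, JAK2 fell by 1.29 and STAT4 by 0.56. JAK1 (0.15), TYK2 (-0.10), STAT5A (-0.20), STAT5B (0.07) and STAT6 (0.16) did not pass. SOCS2 rose by 0.39, and the phosphatase PTPN2, which removes the activating phosphate from STATs, fell by 0.50.

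Other inflammatory genes split. Of 32 cytokines and chemokines measured, 8 rose (25%) and 4 fell (12.5%), against 4.69% and 4.61% of all genes. The 4 falls were 2 when siNEG replicate 3 was left out. Members of the IL1 family rose: IL1B from 7786 ± 886 to 16564 ± 1358 units (SD, n = 3; 1.09 on the log2 scale), IL18 by 0.96, IL1RN, the receptor antagonist, by 1.02, and IL1A by 0.67. CXCL11, a ligand of CXCR3, rose by 1.49, whereas CXCL1 (0.24), CXCL2 (-0.57) and CXCL3 (-0.12) did not pass. CXCL8 rose by 1.03, not in the fit without siSTAT3 replicate 2 (adjusted p = 0.059). TNFSF10, the death ligand TRAIL, fell by 1.24. The alarmins S100A8 and S100A9, which form calprotectin, fell by 1.62 and 2.02. S100A9 had 5297, 5500 and 3835 units in siSTAT3 and 18782, 21053 and 18665 in siNEG. Of NF-kB genes, the subunit NFKB1 fell by 0.54 and TNFAIP3, which ends NF-kB signalling, rose by 1.08. Of 33 interferon-stimulated genes 4 rose (12.1%) and 5 fell (15.2%). The 5 falls were 3 without siNEG replicate 1, 2 or 3 or siSTAT3 replicate 2. IFIT1 rose by 2.03, IFIT2 by 0.65 and IFI27 by 0.88, while IFITM1 fell by 1.06, IFI44L by 0.63 and PARP9 by 0.50.

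Transcription factors of the FOS and JUN families, which pair to form AP-1, changed singly. FOS had 442, 507 and 408 units in siSTAT3 and 2114, 2141 and 2104 in siNEG, a fall of 2.23 (SE 0.11, adjusted p = 1.5e-09). BATF3 fell by 1.59, and JUND rose by 0.96 on its brightest probe set. FOSL1 (0.33), FOSL2 (-0.28), JUN (0.57) and ATF3 (0.18) did not pass, though JUN did with the mean over its probe sets. ETS2 fell by 2.22, from 4494 ± 131 to 972 ± 169 units (SD, n = 3), whereas the Kruppel-like factors KLF4, KLF6 and KLF7 rose by 1.83, 0.92 and 0.99. KLF4, a factor of epithelial differentiation, had 1691, 1786 and 1906 units against 475, 484 and 563. Of 21 immediate early genes and inhibitors of ERK signalling 9 rose (42.9%), 2 fell (9.52%) and 10 did not pass. Over all genes 4.69% rose and 4.61% fell. The 2 falls were 1 without siNEG replicate 1, 2 or 3 or siSTAT3 replicate 1. EGR1 and EGR3 rose by 0.71 and 1.42, the phosphatases DUSP4, DUSP5 and DUSP10 by 0.60, 0.61 and 1.02, and the ERK inhibitor SPRY2 by 0.63. DUSP6 (-0.26) and SPRY4 (-0.04) did not pass.

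Of 13 genes listed for the EGF family, which include the receptor inhibitor ERRFI1 beside ligands and receptors, 7 rose and 0 fell by limma. The 7 rises were 53.8% of the list, against 4.69% of all genes. The median change of the list was 0.56, with 0 falls at an unadjusted p below 0.05. HBEGF had 3655, 3863 and 3686 units against 1568, 1530 and 1502 (1.28 ± 0.17, adjusted p = 1e-04), and the mean over its probe sets did not pass (0.58, adjusted p = 0.11). NRG1 rose by 1.28, TGFA by 0.56 and ERRFI1, the inhibitor of EGF receptors, by 0.68. EREG (0.73), EGFR (0.28) and ERBB3 (0.55) lost their calls in 3, 5 and 1 of the 6 rounds with an array left out, and 5 to 7 genes of the list rose in those rounds. Only NRG1 and ERRFI1 of the 7 also passed with the mean over all probe sets of a gene, so the count for this list depended on taking the brightest one. In the activin and TGF-beta pathway, FST, which binds and blocks activin, rose with INHBA, from 3071 ± 265 to 11229 ± 296 units (SD, n = 3; 1.87). The BMP protease BMP1 fell by 0.91.

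Of 21 genes of epithelial junctions 10 rose (47.6%), 1 fell (4.76%) and 10 did not pass, with a median of 0.37. Over all genes 4.69% rose and 4.61% fell. Besides CLDN4, the tight junction proteins CLDN7 and OCLN each rose by 0.86, the adherens cadherin CDH1 from 7568 ± 116 to 11556 ± 587 units (SD, n = 3; 0.61) and the junction linker JUP by 0.78. The desmosomal genes DSC2 and PKP2 rose by 0.62 and 0.61, whereas DSP (0.11), DSG3 (0.10) and PKP3 (-0.05) did not pass. CDH3, P-cadherin, fell by 0.43. CLDN1 and CGN lost their calls in 6 and 4 rounds, and for CDH1 the mean over all probe sets did not pass (0.10, adjusted p = 0.84). Of 13 epithelial fate factors 5 rose (38.5%) and 0 fell by limma, 1 having a fall at an unadjusted p below 0.05. The 5 were SOX9, the repressors OVOL1 and OVOL2 of mesenchymal genes (1.39 and 0.76), TFAP2A (0.42) and GRHL3, which kept its call in 1 round only. Mesenchymal genes did not form the reverse: SNAI1 fell by 2.97, ZEB2 by 0.95 and the cadherin CDH11 by 1.30, but SNAI2 rose by 0.51 and the smooth muscle gene TAGLN by 1.44. Beside these changes, the summed signal of the 10 luminal markers was 41322 to 47499 units in siSTAT3 and 37556 to 41193 in siNEG. That of the 7 basal markers was 59218 to 62245 and 63711 to 71754. Such sums are carried by the brightest probe sets. Of the 10 luminal markers 2 rose and 0 fell by limma, with a median change of 0.33. Of the 7 basal markers LAMB3 and EGFR rose and KRT14 and CDH3 fell. LAMB3 lost its call in 2 rounds with an array left out, and EGFR in 5. The basal median was 0.01, so the lower basal sum was not a fall of these markers as a set. Fewer cells of a type and less RNA per cell cannot be told apart in bulk RNA, and the part of cell composition in these results was not tested.

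**Figure D3:**
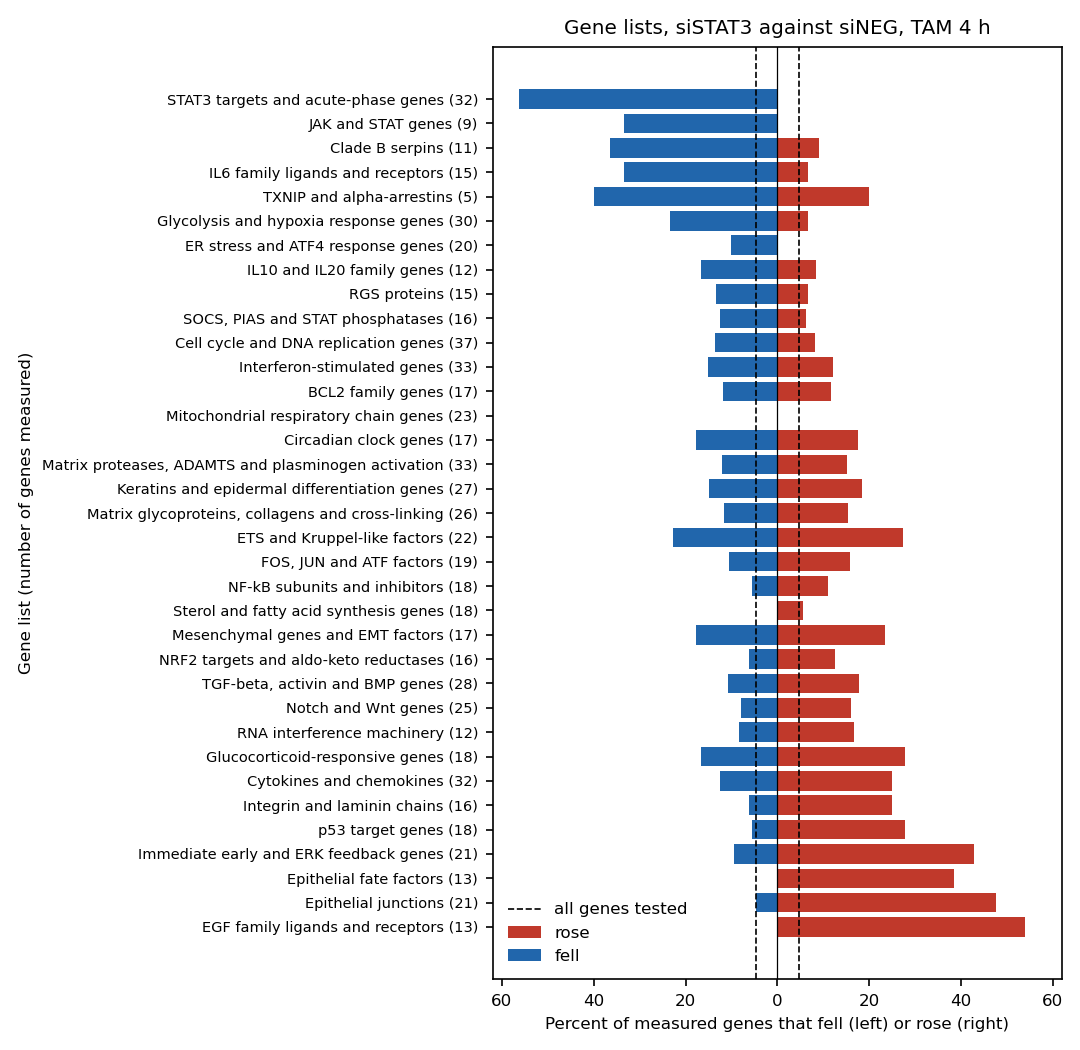
Percent of the measured genes of each list that fell (bars to the left) or rose (bars to the right) at 4 h of TAM, with the number measured in parentheses. Dashed lines mark the 4.61% and 4.69% over all genes, and the longest bars are the 18 of 32 STAT3 targets that fell and the 7 of 13 genes of the EGF family list, with ERRFI1, that rose.

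Clade B serpins other than the pair above included SERPINB1 and SERPINB13, which fell by 1.97 and 1.76. Of the 11 measured, 4 fell (36.4%) and 1 rose (9.09%), against 4.61% and 4.69% of all genes. The 4 include SERPINB3 and SERPINB4, whose signals are not separate measurements. The median of that list was 0.32, of opposite sign to the 4 falls. Matrix and protease genes went both ways: the matrix glycoprotein TNC fell by 1.46, TNFAIP6, a hyaluronan-binding protein, by 2.21 and the metalloprotease ADAM12 by 1.04, while the urokinase PLAU rose by 1.13, its receptor PLAUR by 0.96 and the inhibitor TIMP3 by 1.06. RGS2, which shortens G protein signalling, had 4846, 4796 and 4296 units against 16065, 16482 and 15195 (-1.78 ± 0.09, adjusted p = 2e-09). Among arrestin-fold proteins, TXNIP, an inhibitor of glucose uptake, rose by 2.03 and ARRDC3 fell by 1.53. TXNIP had 3363, 3473 and 3340 units against 927, 804 and 769.

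Of 30 glycolysis and hypoxia genes 7 fell (23.3%) and 2 rose (6.67%), against 4.61% and 4.69% of all genes. PFKFB3, a driver of glycolytic flux, fell by 0.80 and VEGFA by 0.93. The hypoxia factor EPAS1 fell by 0.60 on its brightest probe set, but the mean over its probe sets was 0.15. Of 18 p53 targets 5 rose (27.8%) and 1 fell (5.56%). The fall was that of SESN1 (-0.44), whose call was lost without siNEG replicate 1 or 3 or siSTAT3 replicate 1 or 2. The rise was largest for GADD45A, from 2629 ± 87.0 to 8464 ± 387 units (SD, n = 3; 1.69), and the cyclin-dependent kinase inhibitor CDKN1A rose by 0.69. Cell cycle genes as a list were mostly not called, 3 of 37 rising (8.11%) and 5 falling (13.5%). The 5 falls were 3 without siNEG replicate 1 or 3 or siSTAT3 replicate 1 or 2. CCND2, cyclin D2, rose by 0.80. Of 23 respiratory chain genes 0 were called by limma and 0 had an unadjusted p below 0.05, and their median change was 0.01.

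The knockdown effect at 4 h of TAM was set beside that at 4 h of EtOH, which shares none of the 6 arrays, to ask which effects differed with TAM. No cells without the Src fusion were given TAM, so effects of Src and of the drug itself cannot be told apart. Of the 911 genes that fell in TAM, 351 (38.5%) also fell in EtOH, where 2.41% of all genes fell, and these were 73.7% of the 476 falls there. Of the 927 that rose, 313 (33.8%) rose in EtOH, against 1.88% of all genes and 84.4% of the 371 rises there. The median change of the falls was -0.56 in TAM and -0.32 in EtOH, and that of the rises 0.56 and 0.30. A larger effect in one condition needs the test of the difference. It passed for 103 genes (0.521%), of which 38 had a higher and 65 a lower log2 effect in TAM. Among the 1172 genes called in TAM and not in EtOH, the difference passed for 66. The split moved to 12 higher and 71 lower when each array was centred on its median. Leaving out single arrays gave 22 to 29 higher and 44 to 54 lower, and the higher effects were 25 or fewer without siNEG_EtOH replicate 2, siNEG_TAM replicate 1, siSTAT3_EtOH replicate 1 or siSTAT3_TAM replicate 1 or 3.

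**Figure D4:**
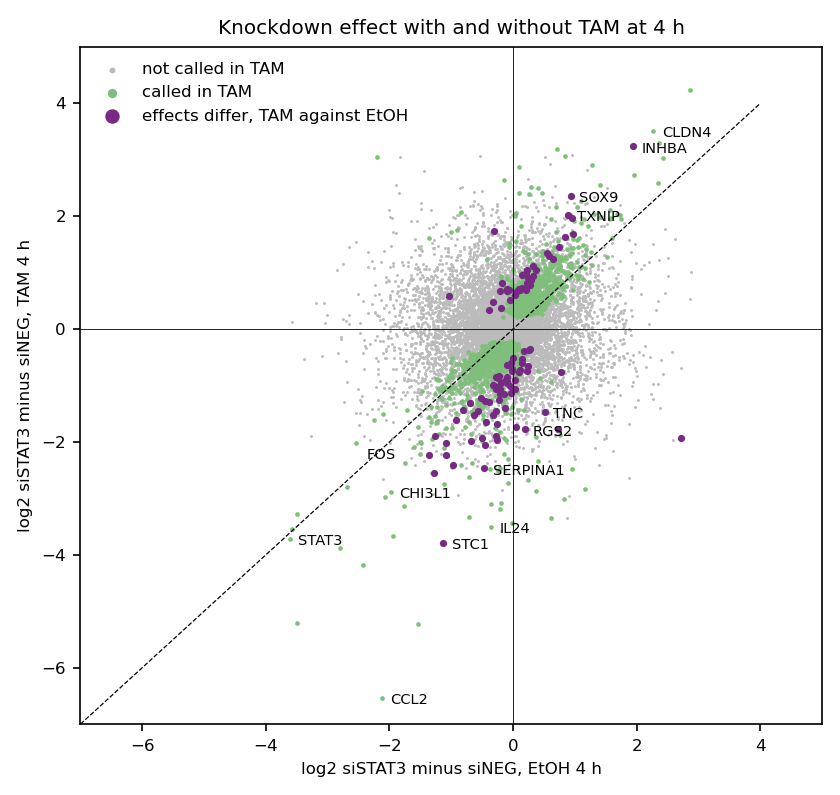
Each point is 1 gene, with the log2 difference between siSTAT3 and siNEG in EtOH on the horizontal axis and in TAM on the vertical axis, both at 4 h, and the dashed line marks equal effects. STAT3 lies on the line at -3.61 and -3.72, and the 103 genes whose effects differed include STC1, RGS2, TNC and SERPINA1 below it and SOX9, INHBA and TXNIP above it.

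Among genes with a lower effect in TAM, STC1 had 275 units in siNEG and 126 in siSTAT3 with EtOH, and 3407 and 258 with TAM, so that its effect differed by -2.66 (adjusted p = 0.0019). SERPINB13 had 75.9 and 126 units with EtOH and 597 and 178 with TAM, and its effect differed by -2.50, a call lost with the mean over its probe sets. In SERPINA1 the values were 2042 and 1483 with EtOH and 8606 and 1564 with TAM, a difference of effects of -2.01 (adjusted p = 7.4e-05). RGS2 had 4002 and 4564 units with EtOH and 15914 and 4646 with TAM (-1.97, adjusted p = 2.3e-06). In siSTAT3 cells with TAM each of these 4 genes was far below siNEG cells with TAM. TNC (-1.98), SLC43A2 (-1.78), SERPINB1 (-1.70), FOS (-1.14) and VEGFA (-0.80) also passed. SLC43A2 did not with the mean over its probe sets or when only the arrays compared were fitted. BCL6 (-1.44) passed at an adjusted p of 0.038, and not in 10 of 12 rounds with an array left out (adjusted p up to 0.11). Among genes with a higher effect in TAM, SOX9 had 1010 units in siNEG and 1935 in siSTAT3 with EtOH, and 324 and 1654 with TAM, a difference of 1.42 (adjusted p = 0.0087). INHBA had 955 and 3654 units with EtOH and 632 and 5959 with TAM (1.30, adjusted p = 9.9e-05). TXNIP (1.14), CPEB2 (1.02), ERRFI1 (0.88) and DKK1 (0.79) passed as well, DKK1 not with median centring and CPEB2 not with the mean over its probe sets. ERRFI1 and DKK1 did not pass when only the arrays compared were fitted. ABTB2 (1.01) passed, but not in 11 of 12 rounds with an array left out.

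**Figure D5:**
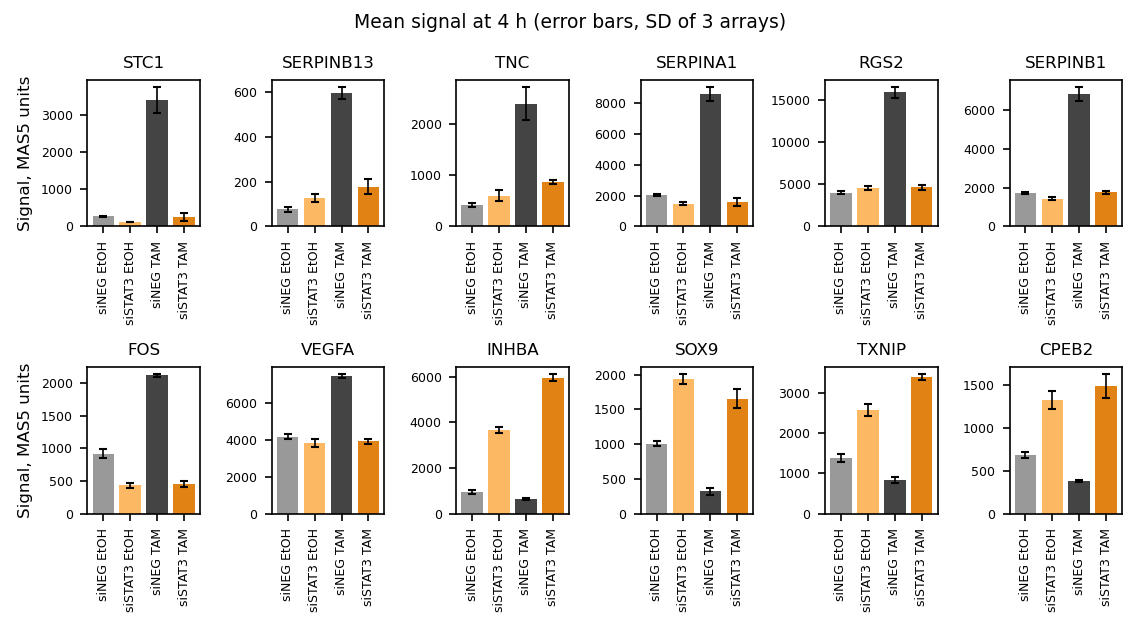
Mean signal in MAS5 units of 12 genes in the 4 groups at 4 h, with the SD of 3 arrays as error bars. In the top row and for FOS and VEGFA the siNEG TAM bar stands alone above the others, and for INHBA, SOX9, TXNIP and CPEB2 it is the lowest.

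For other genes with large effects no difference between TAM and EtOH was shown. CCL2 fell by 6.54 in TAM and had a log2 effect of -2.12 in EtOH (difference -4.42, adjusted p = 0.52), and IL24 effects of -3.51 and -0.35 (adjusted p of the difference 0.14). SOCS3 effects were -3.67 and -1.95 (adjusted p of the difference 0.23) and those of LIF 1.96 and 1.74 (0.90). STAT3 itself differed by -0.11 (adjusted p = 0.95).

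After 24 h of TAM, 497 (54.6%) of the 911 genes that fell at 4 h fell again and 615 (66.3%) of the 927 that rose did so, against 6.77% and 9.72% of all genes, and these were 37.1% and 32.0% of the genes that fell or rose at 24 h. In EtOH at 24 h, 229 (25.1%) of the 911 fell and 201 (21.7%) of the 927 rose, against 1.46% and 1.4% of all genes. The effects at 24 h and 4 h of TAM differed for 1006 genes (5.09%), higher at 24 h for 2.96% and lower for 2.13% of all genes. CHI3L1 had a log2 effect of -5.37 at 24 h, a larger fall than at 4 h (adjusted p of the difference 1.8e-05). SOCS3 had an effect of -5.61 at 24 h, and its difference from 4 h passed at an adjusted p of 0.048 and was lost in 10 of 11 rounds with an array left out (adjusted p up to 0.30). IL6 had an effect of -0.75 at 24 h (adjusted p = 0.14), a difference of 2.00 from 4 h (adjusted p = 0.0091) that did not pass without siSTAT3 replicate 3 of 24 h (adjusted p = 0.066). INHBA rose by 4.07 at 24 h. The genes changed by siSTAT3 at 4 h were also read in siNEG cells, in which TAM was compared with EtOH at 24 h on arrays that the 4 h comparison does not use. Of the 911 genes that fell with siSTAT3, 350 (38.4%) rose and 98 (10.8%) fell with TAM, against 6.06% and 9.31% of all genes. Of the 927 that rose with siSTAT3, 355 (38.3%) fell and 105 (11.3%) rose with TAM.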

How the data were processed

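RNA of 23 samples was hybridized to Affymetrix U133 Plus 2.0 arrays. The authors background-corrected, normalized and summarized them with MAS5, and deposited linear signal intensity values for 54675 probe sets. The mean without the lowest and highest 2% of values was 500 on each array. Here log2 of the signal, with nothing added, was fitted in limma 3.58.1 (R 4.3.3) with 1 mean per group over all 23 arrays (15 residual degrees of freedom), contrasts and eBayes, with Benjamini-Hochberg adjustment over all 54675 probe sets, and called at an adjusted p below 0.05. Probe sets were named by the platform annotation updated to RefSeq symbols: 41097 had 1 gene, 1801 several and 11777 none. Where several probe sets named a gene, the brightest by mean log2 over the arrays stood for it. All p-values come from limma, two-sided, and the script was tested on simulated data.

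Genes named were drawn from STAT3 and the 12 largest rises and falls among called genes that reached 100 units in a group without overlapping arrays. Further ones are the 6 largest differences between TAM and EtOH in each direction and up to 4 called members per gene list. Genes the study's text names were also drawn on, and not all of these are printed. Other list members were named after their values were seen. The comparison and lists were chosen with earlier results of these data known, and 711 of 770 listed entries matched a gene. The labels number replicates but do not say whether they are separate cultures, so p-values measure the spread between these arrays. Promoter windows are those of RefSeq, with 15384 genes matched. Arrays give no read depth, and their number limits the precision.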

Additional observations from a re-analysis of the deposited data

Results flagged for a closer look

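The knockdown effect at 4 h differed between TAM and EtOH by the test of the difference for 103 genes, 38 with a higher and 65 with a lower log2 effect in TAM. Beside those given with values above (STC1 -2.66, SERPINB13 -2.50, SERPINA1 -2.01, TNC -1.98, RGS2 -1.97, SLC43A2 -1.78, SERPINB1 -1.70, BCL6 -1.44, FOS -1.14, VEGFA -0.80, SOX9 1.42, INHBA 1.30, TXNIP 1.14, CPEB2 1.02, ABTB2 1.01, ERRFI1 0.88 and DKK1 0.79), the difference passed among named genes for ARRDC3 (-0.91), ETS2 (-0.86), the circadian repressor NFIL3 (-0.77), EPAS1 (-0.57), GADD45A (0.71) and EGR1 (0.61). ARRDC3, ETS2, NFIL3, EGR1, BCL6 and ABTB2 lost this call in 9 to 11 of 12 rounds with an array left out, and GADD45A and DKK1 lost it with median centring, as did EGR1, ETS2 and ABTB2. With the mean over a gene's probe sets it was lost for SERPINB13, SLC43A2, CPEB2, EPAS1, ABTB2, EGR1 and ETS2. When only the arrays compared were fitted it was lost for ERRFI1, DKK1, SLC43A2, EPAS1, GADD45A, BCL6, ETS2, ARRDC3, NFIL3, EGR1 and ABTB2.

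Between 24 h and 4 h of TAM the effect was higher at 24 h for 585 genes and lower for 421. Without siSTAT3 replicate 3, which leaves 1 siSTAT3 array at 24 h that is assumed to vary like the other groups, these were 332 and 267. Among the genes with the largest changes and those the study's text names, the log2 effect at 24 h was lower for CHI3L1 (-2.48), IL1RL1 (-2.19), SOCS3 (-1.94), ATF3 (-1.93), FOSL2 (-0.88) and FOS (-0.87), and higher for KANK4 (3.45), IL6 (2.00), SPRR2B (1.49) and INHBA (0.83). KANK4 and SOCS3 lost this call in 10 of 11 rounds with an array left out, and FOS, IL6 and SPRR2B lost it without siSTAT3 replicate 3 of 24 h. INHBA and FOSL2 lost it with the mean over a gene's probe sets and, with FOS, IL6, SPRR2B, KANK4 and SOCS3, when only the arrays compared were fitted.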

How the results depend on the processing

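The direction of every called gene was kept in the alternatives to the TAM 4 h comparison except under the mean over a gene's probe sets, where 75 of 1838 turned. Among named genes these were AGO4 (-0.20), BUB1 (0.10), CRISPLD2 (0.045), EPAS1 (0.15), PER2 (0.33) and TGFB3 (0.71). The cause was not tested. CRISPLD2 and TGFB3 also lost their calls in 4 and 2 rounds with an array left out. STAT3 kept its call in each setting, between -3.80 and -3.66 with an array left out. Genes that rose and fell numbered 112 and 141 with only the arrays compared, 341 and 353 under the methods' limits, 151 and 193 with an absolute log2 change above 1, and 704 to 755 and 678 to 795 with an array left out. Genes with a higher and lower effect in TAM than in EtOH numbered 9 and 23 with only the arrays compared, 86 and 119 with the filter at 100 units, 79 and 118 with limma trend, 7 and 24 above 1, 12 and 71 with median centring, and 22 to 29 and 44 to 54 with an array left out. Genes with a higher and lower effect at 24 h than at 4 h numbered 187 and 176, 1008 and 664, 901 and 612, and 225 and 193 in the first 4 of these settings, 261 and 213 under the methods' limits, and 332 to 525 and 267 to 387 with an array left out. Filter and trend changed only which probe sets were tested or how the spread was estimated. With the replicate number as a block, 894 genes rose and 882 fell at 4 h of TAM, and no count above moved by over 1.5 times. Numbers were not taken as pairs, since deviations of same-numbered arrays of the 2 groups correlated at 0.0738, 0.147 and 0.133. Of 148 named genes, 29 lost a call with an array left out and 51 kept theirs in each setting run, and 21 of 36 gene lists had a count that moved by over 1.5 times without some array.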

Other observations

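Circadian genes, which the text has not described, were called both ways at 4 h of TAM. BMAL1, the partner of CLOCK, rose from 1059 ± 36.0 to 1595 ± 104 units (SD, n = 3; 0.59 on the log2 scale), and NFIL3 fell from 1791 ± 36.1 to 872 ± 144 units (-1.05). BMAL2 fell by 0.50, a call lost in 4 rounds with an array left out. PER2 fell by 0.75 on its brightest probe set and not over the mean of its probe sets. Of BCL2 family genes the anti-apoptotic BCL2L1 rose by 0.69 and the pro-apoptotic BCL2L11 fell by 0.85, while BIK, also pro-apoptotic, rose by 0.52. The Wnt antagonist DKK1 rose from 8618 ± 330 to 18773 ± 1134 units (1.12) and the Wnt receptor FZD2 by 0.98. The stress response gene HMOX1 fell by 0.88, whereas TXNRD1 and GCLC, of the same oxidative response, rose by 0.54 and 0.38. For BCL2L1 and TXNRD1 the mean over all probe sets did not pass. TSC22D3 (GILZ), which the paper proposes is inhibited indirectly by STAT3, rose in siSTAT3 on its brightest probe set. Its call was lost in 2 rounds with an array left out and with the mean over its probe sets. Of the 3703 probe sets called at 4 h of TAM, 573 had no gene or several in the annotation and were not named.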
